A study of Sus scrofa with 2 samples.

Results

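CEMIP, CCDC80, DEFB1, TESC, NFE2L3 and MITF are 6 genes that led a cluster of barcodes found in follicle 2 and hardly in follicle 1 of these data. They were taken by symbol from the gene list of the deposited matrices, where the 6 symbols fill 7 of 22342 rows, since DEFB1 has 2. The follicle difference and the shared cells chose them, so both are given below as descriptions with no test. Somatic cells were flushed from 2 antral follicles, each over 7 mm in diameter and called healthy by the labels, of 1 pubertal Landrace × Yorkshire pig of 210 days. Per the study's methods the pig had received pregnant mare serum gonadotropin, which both follicles share. Cumulus-oocyte complexes were isolated with needles, then pipetted in hyaluronidase and washed to take off the remaining cumulus cells. Follicle 1 and follicle 2 each gave 1 droplet library, so the follicle, the library and the handling cannot be told apart.

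Follicle 1 had 14289 barcodes with 125409747 unique molecular identifiers (UMIs), and follicle 2 had 15548 with 127414267. A barcode held 500 to 95248 UMIs in follicle 1 and 500 to 90527 in follicle 2. Barcodes with under 2000 detected genes made up 32.2% of follicle 1 and 47.6% of follicle 2, with a median mitochondrial share of 3.83% and 1.37%. Barcodes over 5000 genes, which can hold more than 1 cell, numbered 139 and 166 and were kept. The libraries shared 56 barcode sequences. Levels are CPM, the UMIs of a gene per 1000000 UMIs of the same barcodes, with 95% intervals that cover counting error only, and in a sum over barcodes fewer cells and less RNA per cell cannot be told apart.

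The 6 genes belong to different kinds of protein. CEMIP binds hyaluronan, the long sugar chain that fills follicular fluid and the expanding cumulus, and takes part in its breakdown. CCDC80 is a secreted matrix protein, and DEFB1 encodes a secreted antimicrobial peptide of the beta-defensin family. TESC (tescalcin) is a calcium-binding protein. NFE2L3 is a cap'n'collar (CNC) transcription factor, a family that binds DNA together with small MAF proteins, and MITF is a basic helix-loop-helix factor best known from pigment cells and lysosome genes.

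The genes lie apart in the genome (Sscrofa11.1, RefSeq annotation). CEMIP spans 49622534 to 49792547 on the plus strand of chromosome 7. CCDC80 (147203333 to 147244753) and MITF (51177356 to 51422096) are both on the plus strand of chromosome 13, far from each other. TESC spans 35381899 to 35452215 on the plus strand of chromosome 14 and shares 7196 bases with FBXW8 on the other strand. NFE2L3 spans 46213392 to 46250309 on the minus strand of chromosome 18 and shares 2470 bases with HNRNPA2B1 on the other strand. HNRNPA2B1 was at 985 and 1052 CPM in follicles 1 and 2, a ratio of 1.07, and FBXW8 at 5.96 and 6.89 CPM, a ratio of 1.16, so neither partner differed between follicles as much as the member beside it. DEFB1 has 2 records in the annotation, and the identifiers of its 2 rows could not be tied to them, so no position is given.

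The 250 bases before the annotated starts of CEMIP and CCDC80, the most follicle-restricted genes, are printed to show how unlike their upstream sequences are. Capitals mark matches, on either strand, to the TATA box TATAAA, the E-boxes CACGTG and CATGTG that MITF can bind, the FOXO motif GTAAACA and the CNC and small MAF motif TGACNNNGC.
CEMIP (chr7:49622284-49622533, plus strand): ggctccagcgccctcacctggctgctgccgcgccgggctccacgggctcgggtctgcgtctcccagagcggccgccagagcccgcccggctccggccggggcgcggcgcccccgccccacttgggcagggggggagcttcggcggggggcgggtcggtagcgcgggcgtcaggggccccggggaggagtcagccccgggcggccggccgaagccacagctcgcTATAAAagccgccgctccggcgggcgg
CCDC80 (chr13:147203083-147203332, plus strand): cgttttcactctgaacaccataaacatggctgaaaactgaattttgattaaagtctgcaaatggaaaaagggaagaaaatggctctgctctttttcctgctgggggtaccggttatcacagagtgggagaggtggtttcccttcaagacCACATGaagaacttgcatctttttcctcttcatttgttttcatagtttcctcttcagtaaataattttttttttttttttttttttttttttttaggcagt

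The CEMIP stretch was 80.8% G and C, and the CCDC80 stretch 35.6%, around a median of 57.6% over 19559 windows of this length before protein-coding genes. CEMIP had a TATA box 27 bases before its start, a motif that 9.77% of all windows held. CATGTG matched once in CCDC80, 101 bases before the start, and once in MITF, 187 bases before it, and 8.43% of all windows held it. CACGTG (6.39% of all windows), GTAAACA (2.28%) and TGACNNNGC (9.97%) matched in none of the 5 windows searched, those of all members but DEFB1. A match is a run of letters, not a shown binding site, and MITF has 13 annotated mRNAs with several starts, of which only the first window was searched.

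CEMIP and CCDC80 were close to absent from follicle 1 and among the clearest marks of follicle 2. CEMIP had 34 UMIs in follicle 1, 0.271 CPM (0.188 to 0.379), and 7470 in follicle 2, 58.6 CPM (57.3 to 60.0), a ratio of 216 (155 to 312.5). CCDC80 had 87 UMIs in follicle 1, 0.694 CPM (0.556 to 0.856), and 7980 in follicle 2, 62.6 CPM (61.3 to 64.0), a ratio of 90.3 (73.1 to 113). Of the UMIs of both follicles, 99.5% of those of CEMIP and 98.9% of those of CCDC80 came from follicle 2.

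DEFB1 followed the same pattern at a far lower level, with 14 UMIs (0.112 CPM) in follicle 1 and 396 (3.11 CPM) in follicle 2, a ratio of 27.8 (16.4 to 51.4). All but 2 UMIs of each follicle lay on the row ENSSSCG00000029990, while ENSSSCG00000027555 had 2 UMIs in each follicle. The difference in DEFB1 was therefore that of a single row, and the 2 rows are summed in what follows.

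The remaining members were graded rather than restricted. TESC was at 3.40 CPM (426 UMIs) in follicle 1 and 21.7 (2771) in follicle 2, a ratio of 6.40 (5.78 to 7.11). MITF was at 4.73 CPM (593 UMIs) and 22.6 (2883), a ratio of 4.79 (4.38 to 5.24). NFE2L3 was at 7.04 CPM (883 UMIs) and 18.6 (2376), a ratio of 2.65 (2.45 to 2.86). NFE2L3 was thus the highest member in follicle 1, and 72.9% of its UMIs came from follicle 2, against 82.9% for MITF and 86.7% for TESC. Of 10290 genes compared, 0.515% were at least 4-fold higher in follicle 2 and 1.21% at least 2-fold higher. These shares place the members, which were chosen for this contrast, and nothing is read from them.

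The UMIs of CEMIP and CCDC80 were concentrated in few barcodes. CEMIP was found in 20 barcodes of follicle 1 and 1149 of follicle 2, with at most 8 and 141 UMIs in a barcode. In follicle 2, 205 barcodes with 10 or more CEMIP UMIs held 76.2% of its UMIs, and 84 barcodes held 50%. CCDC80 was found in 83 and 1606 barcodes, with at most 2 and 103 UMIs, and 228 barcodes of follicle 2 with 10 or more held 61.1%.

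The regulators and TESC were spread thinner. TESC was found in 336 barcodes of follicle 1 and 1499 of follicle 2, NFE2L3 in 721 and 1429, and MITF in 535 and 1438. Their highest counts in a barcode of follicle 2 were 20, 17 and 22 UMIs, and it took 349, 363 and 283 barcodes to reach 50% of their UMIs. Of the barcodes with a UMI of these genes in follicle 2, 61.0%, 66.1% and 62.0% had exactly 1, as did 57.0% for CEMIP, 50.8% for CCDC80 and 64.5% for DEFB1, so most detections of every member rested on a single molecule.

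**Figure D1:**
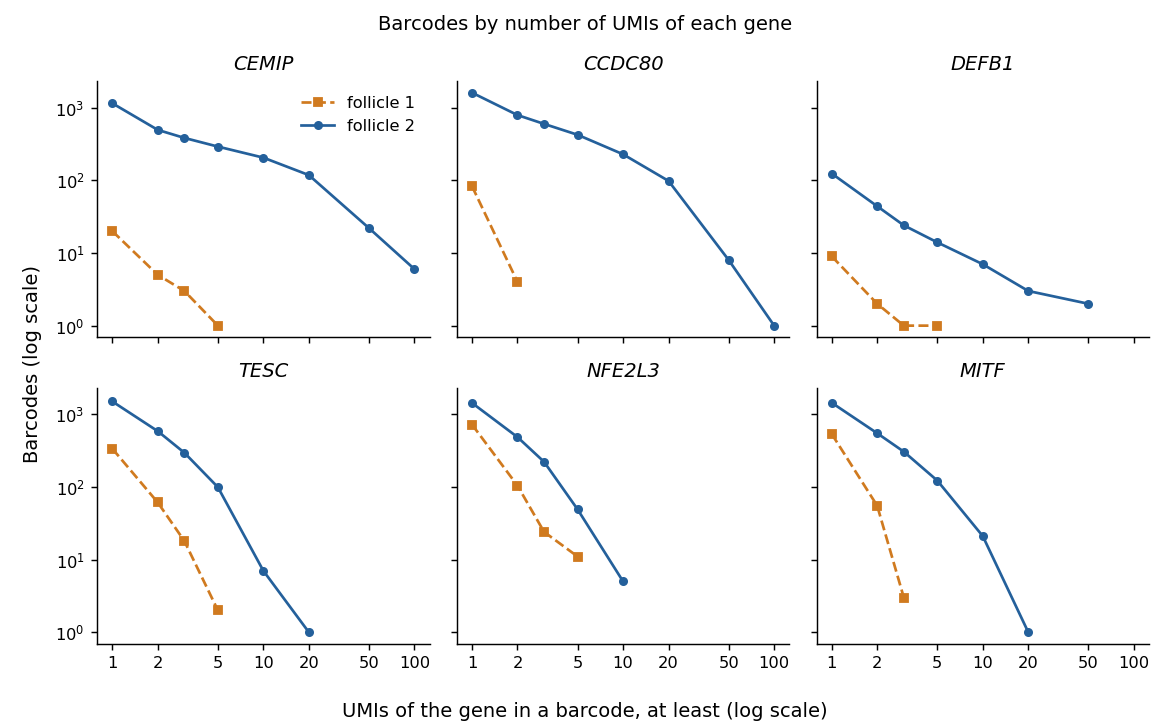
Number of barcodes (vertical, log scale) with at least a given number of UMIs of each gene (horizontal, log scale), for follicle 1 (dashed, squares) and follicle 2 (solid, circles), with counts of 0 left out. CEMIP reached 141 UMIs in a barcode of follicle 2 and 8 in follicle 1, whereas TESC, NFE2L3 and MITF stayed at or below 22 UMIs in both.

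DEFB1 rested on a handful of barcodes. It was found in 9 barcodes of follicle 1 and 124 of follicle 2, where 7 barcodes held 50.3% of its UMIs. The 3 highest barcodes had 62, 61 and 29 UMIs. Without the barcode of 62 UMIs, which had 4456 genes and held all 5 other members, the follicle ratio was 23.5 (13.8 to 43.4). Of the 14 barcodes with 5 or more DEFB1 UMIs, 10 held 3 or more other members, 12 held CCDC80 and 7 held CEMIP.

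CEMIP in follicle 1 was mostly found at low counts and with no other member. Of its 20 barcodes there, 15 (75%) had 1 UMI, against 57.0% of its barcodes in follicle 2. The other 5 held 19 of the 34 UMIs. The highest 3 had 8, 4 and 3 UMIs, and none of these held any other member. Only 2 of the 20 held another member, while 34.8% of the CEMIP barcodes of follicle 2 held MITF. None of the 20 was among the barcode sequences shared with follicle 2.

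In follicle 2 all 6 genes had a higher level in barcodes with under 2000 genes than in those with 2000 to 5000 genes. CEMIP was at 119 CPM under 2000 genes and 46.4 in 2000 to 5000, a ratio of 2.57 (2.42 to 2.72). CCDC80 was at 167 and 51.1 CPM, a ratio of 3.27 (3.11 to 3.45). TESC had the largest ratio of the members, 4.26 (3.92 to 4.63), from 69.9 and 16.4 CPM. MITF (48.3 and 18.7 CPM, ratio 2.58), DEFB1 (5.93 and 2.83, ratio 2.10) and NFE2L3 (32.6 and 16.4, ratio 1.98) followed. Of 10038 genes, 2.44% were at least 2-fold higher under 2000 genes, and 5 of the 6 members were among those; the median ratio of all genes was 1.02.

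Follicle 1 did not show this for each member. Under 2000 genes and in 2000 to 5000 genes, TESC was at 5.01 and 3.35 CPM, a ratio of 1.5 (1.05 to 2.08), and MITF at 5.40 and 4.68 CPM, a ratio of 1.15 (0.822 to 1.58). NFE2L3 went the other way, at 4.37 and 7.12 CPM, a ratio of 0.613 (0.422 to 0.864). CEMIP was at 1.93 and 0.159 CPM, a ratio of 12.1 (5.67 to 25.4). This ratio rests on 15 and 18 UMIs, and the single barcode of 8 UMIs lay under 2000 genes. CCDC80 had 7 and 73 UMIs and DEFB1 1 and 11, and their ratios, 1.39 (0.540 to 3.01) and 1.32 (0.0306 to 9.07), had intervals on both sides of 1. In follicle 1, 0.569% of 10023 genes were at least 2-fold higher under 2000 genes.

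The boundary at 2000 genes cut through the peak of the members rather than marking an edge. In bins of 500 genes, CEMIP in follicle 2 was at 234 CPM from 1500 to under 2000 genes. It was at 380 CPM from 2000 to under 2500, and at 8.77 from 3500 to under 4000. In the 166 barcodes over 5000 genes, which can hold more than 1 cell, CEMIP was at 178 CPM, with 12.7% of its UMIs. TESC, NFE2L3, MITF and CCDC80 also had their highest bin at 2000 to under 2500 genes, at 109, 81.9, 120 and 343 CPM, though the interval of CCDC80 overlapped that of the bin before. All 6 members were lowest at 3500 to under 4000 genes (DEFB1 at 4000 to under 4500 once its barcode of 62 UMIs was left out), where NFE2L3 (9.12 CPM) came near its follicle 1 level in the same bin (7.04). The highest bin of DEFB1, 13.7 CPM at 4500 to under 5000 genes, took 61 of its 106 UMIs from 1 barcode, and without it stood at 5.84 CPM, below the 7.85 CPM at 1000 to under 1500 genes.

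**Figure D2:**
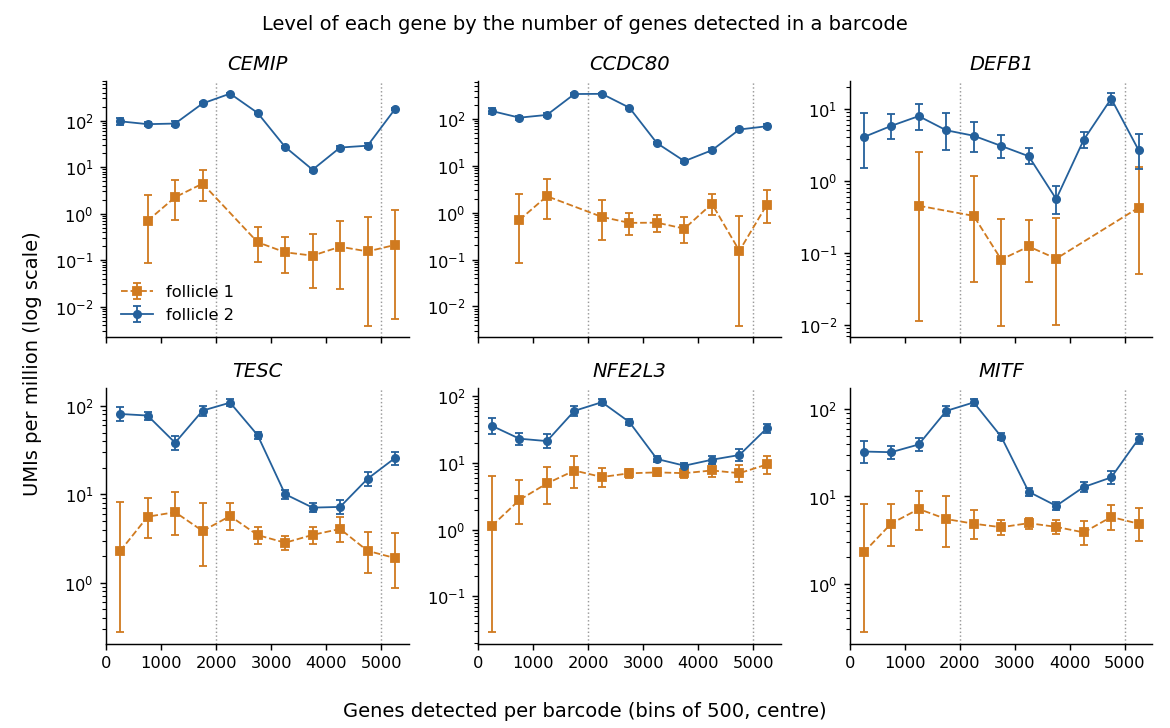
Level of each gene (CPM of UMIs, log scale) against the number of genes detected in a barcode, in bins of 500 with the last point for 5000 or more, for follicle 1 (dashed, squares) and follicle 2 (solid, circles). Bars are exact 95% Poisson intervals, bins with no UMI are left out, and dotted lines stand at 2000 and 5000 genes; in follicle 2 the curves of 5 genes peak at 2000 to under 2500 genes and all dip at 3500 to under 4000.

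The smallest barcodes held the members too, in a different mix. In the 5595 follicle 2 barcodes under 1000 genes, CEMIP was found in 292, CCDC80 in 430 and TESC in 405. TESC there had 0.674 UMIs per CCDC80 UMI, against 0.277 from 1000 to under 2000 genes and 0.321 in 2000 to 5000 genes. CEMIP had 0.745, 0.694 and 0.908 UMIs per CCDC80 UMI in these ranges. CEMIP reached 33 UMIs and CCDC80 14 in a barcode under 1000 genes, while TESC reached 4. The part of free RNA in these counts was not tested.

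Every barcode was then thinned to 1000 UMIs, which left out 2925 shallower barcodes of follicle 2. The ratio of levels between the gene ranges narrowed for 5 members. CEMIP, for one, was then at 106 CPM under 2000 genes and 85.8 in 2000 to 5000. A thinned level weights every barcode alike, while the sums above weight deep barcodes more. For CEMIP the log2 ratio of 2000 to 5000 genes over under 2000 genes was -1.36 from sums and -0.30 thinned. It was -0.34 as an unthinned mean over barcodes, so the narrowing was also seen without thinning. The share of barcodes with a UMI, under 2000 genes and in 2000 to 5000 genes, was 4.54% and 2.93% for CEMIP, 6.95% and 3.92% for CCDC80, and 5.64% and 2.29% for TESC. It was 3.69% and 2.43% for MITF, and 2.35% and 2.15% for NFE2L3. The thinned shares of DEFB1 had the same order, at 0.514% and 0.163% of barcodes (23 and 13). Its levels went from 5.93 and 2.83 CPM to 7.38 and 2.38 thinned, a wider ratio that rests on 33 and 19 UMIs of 1 random draw. They were 6.76 and 3.01 CPM thinned to 500 UMIs and 8.78 and 3.36 thinned to 2500, so nothing is read from the widening. Unthinned, the order of the shares was the reverse for all 6 genes, since deeper barcodes detect more. It was 5.87% and 8.62% for CEMIP, and 0.527% and 0.939% for DEFB1.

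The members were found in the same barcodes of follicle 2. Of its 15548 barcodes, 11206 held none, 2829 held 1, 699 held 2, 388 held 3, 288 held 4, 126 held 5 and 12 held all 6. At least 3 were held by 814 barcodes, 5.24% (4.89% to 5.6%), against 4 of 14289 in follicle 1, 0.0280% (0.00763% to 0.0717%). In follicle 1 1512 barcodes held 1 member and 90 held 2, so single detections were common there and joint ones rare.

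Each of the 15 pairs was found together in follicle 2 more often than the product of the 2 shares, by 3.07 times (CEMIP and TESC, 340 barcodes) to 5.58 times (DEFB1 and MITF, 64 barcodes). Pearson's r over the 15548 barcodes, on log UMIs per 10000, ran from 0.0378 (CEMIP and DEFB1) to 0.361 (CCDC80 and MITF), with a median of 0.261. These barcodes share 1 library and differ in depth. In barcodes with 2000 to 5000 genes the median r was 0.467, and under 2000 genes it was 0.130. MITF was the nearest member of CEMIP (0.329), CCDC80 (0.361) and NFE2L3 (0.335).

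In follicle 1 the median r was -0.0008 and 6 pairs shared no barcode. The highest r there was 0.0717, for CEMIP and MITF, which met in 1 barcode of 559 genes. TESC, NFE2L3 and MITF, each well detected in follicle 1, had an r of 0.0074 (TESC and NFE2L3), 0.0018 (TESC and MITF) and 0.0005 (NFE2L3 and MITF), against 0.221, 0.261 and 0.335 in follicle 2. Counted as barcodes with both over the product of the shares, these pairs stood at 1.65 (1.10 to 2.39), 1.27 (0.727 to 2.07) and 1.56 (1.12 to 2.10) in follicle 1, so 2 of the 3 were found together somewhat more often than the product there, and less so than in follicle 2 (3.70, 3.84 and 4.13).

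**Figure D3:**
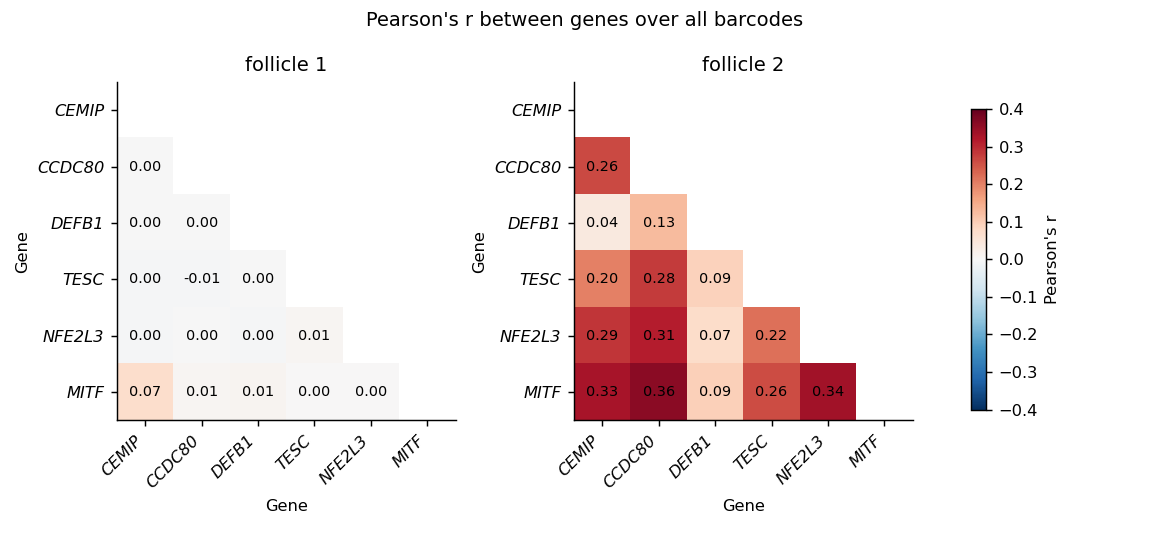
Pearson's r of each pair of genes over all barcodes of follicle 1 (left) and follicle 2 (right), on the log scale of UMIs per 10000, with the colour scale from -0.4 to 0.4. Follicle 2 values run from 0.0378 to 0.361, and all follicle 1 values are between -0.0055 and 0.0717.

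To give each member a level that its own counts did not choose, barcodes of follicle 2 with 3 or more of the other 5 members were compared with the rest. CEMIP was at 839 CPM in 659 such barcodes and 22.8 in the others, and 44.2% of the 659 held it. CCDC80 was at 842 and 31.5 CPM, and 67.0% of 551 held it. The ratios were 36.8 (35.1 to 38.5) and 26.8 (25.6 to 28.0). The set of barcodes differs for each member, since its own counts are left out of the rule. CEMIP in its set was on average as abundant as CCDC80 in its own, but missing from a larger share of barcodes.

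MITF was at 272 and 12.8 CPM and was held by 71.2% of its 559 barcodes, the highest share of the members. TESC (192 and 15 CPM) and NFE2L3 (181 and 12 CPM) were held by 63.6% and 64.4%. DEFB1, at 43.4 and 0.935 CPM, was held by 7.16% of 796 barcodes, so nearly all barcodes with the other members had no DEFB1 UMI. The members were themselves picked for a shared group of cells, and these values describe how tight the group is.

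Where a barcode held no other member, the follicles were closer, and the interval of the NFE2L3 ratio lay on both sides of 1. NFE2L3 was at 7.04 CPM (6.56 to 7.55) in follicle 1 and 6.99 (6.46 to 7.54) in follicle 2, a ratio of 0.992 (0.894 to 1.10). MITF was at 4.75 and 6.30 CPM, a ratio of 1.33 (1.18 to 1.49), and TESC at 3.40 and 7.98 CPM, a ratio of 2.34 (2.07 to 2.66). CEMIP (0.295 and 7.02 CPM, ratio 23.8) and CCDC80 (0.718 and 9.70 CPM, ratio 13.5) remained far higher in follicle 2, and DEFB1 had 13 and 30 UMIs, a ratio of 2.76 (1.39 to 5.76).

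The ratios differed between gene ranges. Among barcodes of 2000 to 5000 genes with no other member, the ratio was 1.15 (0.980 to 1.35) for TESC, 1.09 (0.956 to 1.25) for MITF and 0.866 (0.772 to 0.970) for NFE2L3, against 21.7 for CEMIP and 6.57 for CCDC80. Under 2000 genes, the ratios were 8.80 for TESC, 3.05 for MITF, 2.83 for NFE2L3, 20.3 for CEMIP and 67.8 for CCDC80. This split was chosen after the values were seen, and since the members were picked for sharing barcodes of follicle 2, leaving out barcodes with another member lowers the ratios by construction. It also works less well in shallow barcodes, as the median depth in follicle 2 was 1180 UMIs under 2000 genes and 13830 in 2000 to 5000 genes.

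Barcodes with blood cell markers were too few to place the members well. In 9 barcodes of follicle 2 with leukocyte markers (median 6806 UMIs), CEMIP and DEFB1 had 0 UMIs, which allows a share of barcodes with a UMI of up to 33.3%. CCDC80 and NFE2L3 were in 2 of the 9 (22.2%), TESC in 3 (33.3%) and MITF in 1, against 10.3%, 9.19%, 9.64% and 9.25% of all follicle 2 barcodes. The 10 TESC UMIs came to 113 CPM (54.2 to 208). In 36 barcodes with over 50% of their UMIs from HBB (median 3972 UMIs), CEMIP, NFE2L3 and MITF had 1 UMI each, so CEMIP was in 2.78% of them against 7.39% of all barcodes (median 6130.5 UMIs), and CCDC80, TESC and DEFB1 had 0, which allows a share of barcodes with a UMI of up to 8.33% and sets no limit on expression at this depth.

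The genes most like the members in follicle 2, by the mean r with the 6 over all barcodes, were SELENOP, which carries selenium in plasma (0.341), FBXO32, a ubiquitin ligase of muscle wasting (0.304), and NUPR1, a stress-induced nuclear protein (0.297). TXNIP (0.273), the tight-junction gene CLDN11 (0.270), ENSSSCG00000023322 (0.269), FOXO1 (0.255), the haem oxygenase HMOX1 (0.246), S100A1 (0.236) and THBS1, a thrombospondin (0.234), completed the first 10. Over 10097 genes the median of this mean r was 0.0065 and the 99th percentile 0.148. The order lists the genes that share barcodes with the members, in 1 library, and SELENOP was among the 3 nearest genes of each member but DEFB1.

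The companions were not all higher in follicle 2. SELENOP was at 25.4 CPM in follicle 1 and 184 in follicle 2, a ratio of 7.27, and FBXO32 at 2.46 and 31.4, a ratio of 12.8. ENSSSCG00000023322 (35.9 and 47.0 CPM) and CLDN11 (17.4 and 27.8 CPM) differed by 1.31 and 1.6 times. THBS1 was lower in follicle 2, at 361 and 60.6 CPM, a ratio of 0.168, yet within follicle 2 it was at 613 CPM in the 814 barcodes with 3 or more members and 30.3 in the other 14734. In follicle 1, the mean r of these 10 genes with the members was between 0.003 and 0.021.

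CEMIP had a near neighbour among its own nearest genes. ARNT2, a transcription factor gene at 49259118 to 49450471 on the plus strand of chromosome 7, had an r of 0.316 with CEMIP and ends 172 kb before it, with ABHD17C (49540698 to 49599323) between them. ARNT2 was at 4.38 CPM in follicle 1 and 7.57 in follicle 2, a ratio of 1.73 (1.56 to 1.92), and ABHD17C at 0.502 and 0.589, a ratio of 1.17 (0.827 to 1.66). The follicle ratio of CEMIP was thus far from those of the 2 genes before it.

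Nearest to DEFB1 were SFRP4 (r 0.204), a secreted inhibitor of WNT signalling, LOXL2 (0.144), a collagen-crosslinking enzyme, and NUPR1 (0.140), which is also among the nearest of CCDC80. SFRP4 had 2 UMIs in follicle 1 and 274 in follicle 2, a ratio of 135 (37.0 to 1119). Of the 14 barcodes with 5 or more DEFB1 UMIs, 9 held SFRP4 and 11 held LOXL2, and these 14 held 28.8% of all SFRP4 UMIs of the follicle.

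The 814 follicle 2 barcodes with 3 or more members were then set against the other 14734 over lists of genes, of which those with 200 or more UMIs are counted. Of all 10097 such genes, 16.2% were at least 2-fold higher and 5.67% at least 2-fold lower in the 814, and the median ratio was 1.22. The 814 had a median of 2499 genes and 6304.5 UMIs, and 197 of them (24.2%) had under 2000 genes. The barcodes were chosen by the members and the lists with earlier results known, so counts are given with no test.

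Genes of granulosa cells split. FSHR, the follicle-stimulating hormone receptor, was at 29.5 CPM in the 814 and 1.27 in the others, a ratio of 23.3 (18.7 to 28.9), and FST (follistatin) had a ratio of 2.15. INHA, the inhibin alpha subunit, was at 6579 and 22806 CPM, a ratio of 0.288, and SERPINE2 had 0.392. In all, 2 of 9 granulosa genes were 2-fold higher and 2 were 2-fold lower. Of the 5 cumulus genes, 3 were 2-fold lower and VCAN was highest, at a ratio of 1.55. The part of free RNA in the INHA level was not tested.

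Contractile and stromal genes were higher, with 6 of 8 past 2-fold and none lower. MYH11, smooth muscle myosin, was at 89.3 and 2.00 CPM, a ratio of 44.8 (38.5 to 52.2), and ACTA2 (13.4), PDGFRB (13.4) and TAGLN (13.1), markers of smooth muscle or pericytes, were close to each other. DCN, a matrix proteoglycan, had a ratio of 12.4, and RGS5, a pericyte gene, was lowest at 0.660. The summed level of the whole list was 777 CPM in the 814 and 633 in the others. RGS5 alone gave 398 and 602 CPM of these sums, which thus rest largely on this 1 gene. The median ratio of the 8 counted genes was 12.8. Of its genes short of 200 UMIs, the fibroblast genes LUM and PDGFRA had 70 and 5 UMIs in the 814, at ratios of 24.6 (16.9 to 35.9) and 11.4 (2.94 to 39.6). COL3A1, another fibroblast gene, and CYP17A1, of theca cells, had 6 and 3 UMIs, at ratios of 0.721 (0.260 to 1.61) and 0.291 (0.0595 to 0.865).

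Markers of other cells were mixed. Of 4 endothelial genes counted, VWF was at a ratio of 34.5 (22.8 and 0.662 CPM), but KDR (0.187) and EGFL7 (0.219) were lower. Of the endothelial genes short of the count, EMCN had 7 UMIs in the 814 and 8 in the others, a ratio of 16.0 (4.93 to 50.4), TEK had 4 and 25, a ratio of 2.92 (0.739 to 8.46), and CDH5 had 2 UMIs in all of follicle 2. Of 3 leukocyte genes 2 were lower, with AIF1 at 0.222, and PTPRC had 0 UMIs. HBB had a ratio of 0.234, but 1 barcode gave 1274 of its 1391 UMIs in the 814. The 36 barcodes with over 50% of their UMIs from HBB were all among the others, so this ratio rests on few barcodes. EPCAM, the only surface epithelium gene counted, had a ratio of 0.328, and GDF9, the only oocyte gene counted, 1.53. KRT8, a keratin that fell short of the count with 140 UMIs, was at 12.8 and 0.455 CPM, KRT7 had 6 and 7 UMIs, a ratio of 15.6 (4.35 to 54.4), and KRT18 had 1 UMI in all of follicle 2. No gene of the pigment cell list had 200 UMIs, and TYR, TYRP1, OCA2 and TRPM1 had none in either set of barcodes, while DCT, SLC45A2, PMEL and MLANA had 6, 6, 3 and 1 UMIs in the 814, with a DCT ratio of 4.98 (1.65 to 12.7).

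The hyaluronan genes around CEMIP were mostly even or lower. Of 12 counted, 5 of which the cumulus list also holds, none was 2-fold higher and 4 were 2-fold lower. SHAS2, a hyaluronan synthase, had 2 UMIs in the 814 and a ratio of 0.107 (0.0129 to 0.389), TNFAIP6, which crosslinks hyaluronan, 0.249, the receptor CD44 0.287 and the link protein HAPLN1 0.430. CEMIP2, the close relative of CEMIP, was at 8.92 and 7.87 CPM, a ratio of 1.13 (0.856 to 1.47). The hyaluronidase HYAL2 had a ratio of 1.25.

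The relatives and partners of the other members were also near even, with 1 of 11 past 2-fold. SRPX, a relative of CCDC80 that carries sushi repeats, was at 65.4 and 9.04 CPM, a ratio of 7.24 (6.46 to 8.10), and SRPX2 had 0.738. CHP1, a relative of TESC, had a ratio of 0.614. Of the CNC family, NFE2L2 had 1.92 and NFE2L1 1.07, and of the small MAF partners MAFG had 1.07 and MAFF 0.541. TFE3, a relative of MITF, had 1.64, and TFEB, which with 198 UMIs fell just short of the count, 9.34 (6.85 to 12.6).

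Lists of known targets of such regulators were mixed. Of 15 lysosome genes that MITF and TFE factors are known to drive, 2 were 2-fold higher, FNIP2 (2.25) and LAMP2 (2.13), with GLA lowest at 0.527. Of 10 antioxidant genes of CNC factors, HMOX1 (19.3), GCLC (3.20) and FTL (2.46) were higher and SRXN1 (0.368) and OSGIN1 (0.347) lower. Of 15 FOXO targets 10 were 2-fold higher, led by FBXO32 (35.5), KLF9 (13.8), TXNIP (11.8) and FOXO1 itself (8.99), and PDK4 (0.393) and SESN1 (0.493) were lower. FBXO32, TXNIP, FOXO1 and HMOX1 also stand among the 10 genes most like the members and are no separate evidence.

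Of 13 secreted matrix genes, TIMP3 (9.38), COL18A1 (8.31) and FBLN1 (8.17) were among the 5 that were 2-fold higher, and TIMP1 (0.336), LOX (0.343) and BGN (0.407) lower. Of 5 cell division genes CDK1 had the highest ratio, 2.51, and CCNB2 the lowest, 1.42. CCDC80 was thus in barcodes that were high in some matrix genes and low in others.

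**Figure D4:**
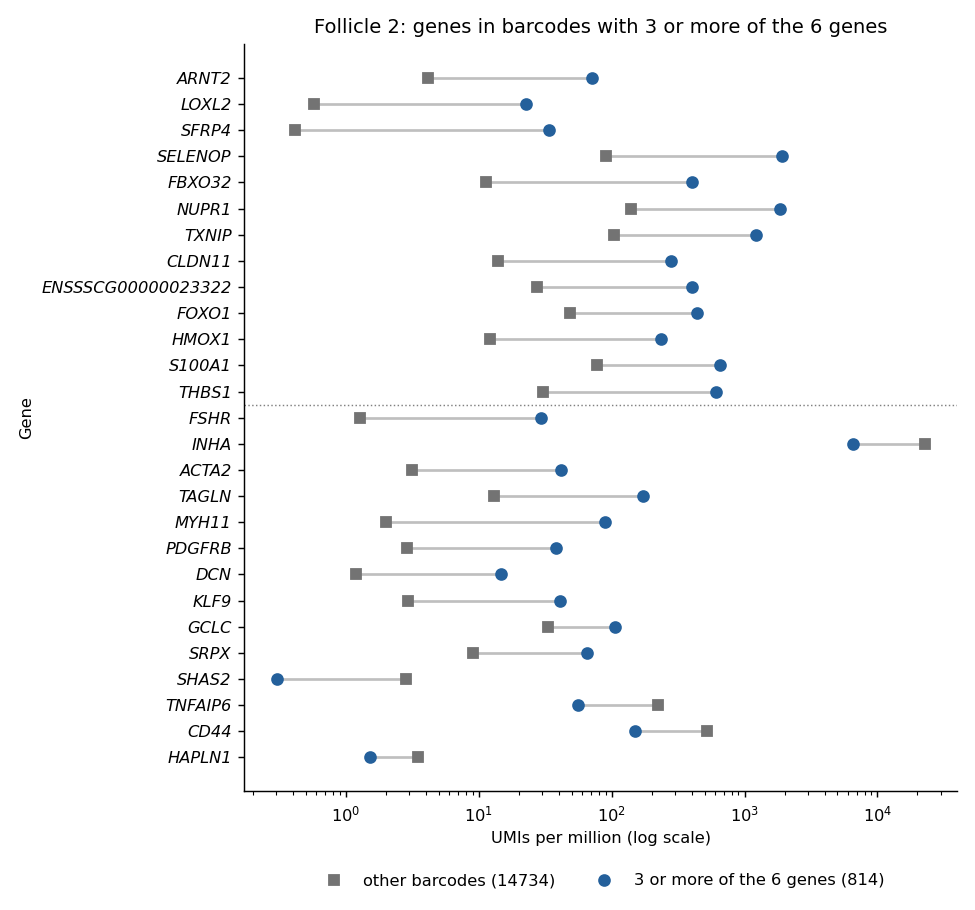
Level (CPM of UMIs, log scale) of companion genes (above the dotted line) and of list genes (below it) in the 814 barcodes of follicle 2 with 3 or more of the 6 genes (circles) and in the other 14734 (squares). MYH11 lies 44.8 times higher in the 814 and FSHR 23.3 times, while INHA, SHAS2, TNFAIP6, CD44 and HAPLN1 lie to the left of the squares.

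CEMIP and CCDC80 were not held as a fixed pair. Among the 944 barcodes of follicle 2 with 2 or more of TESC, NFE2L3 and MITF, a split added after the values were seen, CEMIP had 0 UMIs in 573, 1 to 4 in 144 and 5 or more in 227. CCDC80 had 0 in 395, 1 to 4 in 253 and 5 or more in 296. Both had 5 or more in 102 barcodes, 1.43 times the 71.2 that the product of the shares gives. Only CEMIP was at 5 or more, with no CCDC80, in 84 barcodes, and only CCDC80, with no CEMIP, in 144.

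The median depth differed little, at 6487 UMIs where CEMIP was 0 and 6727 where it was 5 or more. CCDC80 was at 471 CPM (452 to 490) in the first and 891 (851 to 933) in the second, and CEMIP at 0 and 2558. Pearson's r of CEMIP and CCDC80 over the 944 was 0.101. In the 695 with 2000 to 5000 genes, both had 5 or more in 82 barcodes, 1.34 times the product of the shares.

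**Figure D5:**
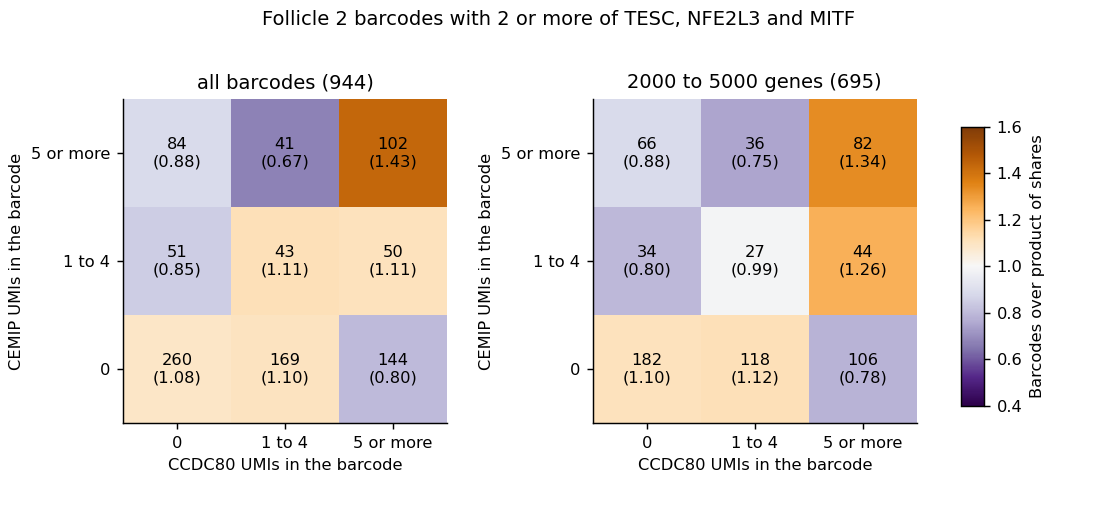
Barcodes of follicle 2 with 2 or more of TESC, NFE2L3 and MITF by their CEMIP UMIs (vertical) and CCDC80 UMIs (horizontal), for all 944 (left) and for the 695 with 2000 to 5000 genes (right). Each cell gives the number of barcodes and, in brackets and as colour, that number over the product of the shares; the highest is 1.43, with both genes at 5 or more, and the lowest 0.674.

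Barcodes with 5 or more CEMIP UMIs differed from those with 0 in other genes too, of which the leading few were read off after the values were seen. Of 5134 genes, 1.56% were at least 2-fold higher and 1.58% at least 2-fold lower. ARNT2, the neighbour described above, was at 131 and 22.4 CPM, a ratio of 5.86 (4.69 to 7.37). It was held by 61.2% of the 227 against 14.3% of the 573. ABHD17C, which lies between ARNT2 and CEMIP, had 12 and 8 UMIs, a ratio of 3.58 (1.35 to 10.1). FBLIM1 (4.90), MYH11 (4.60), CSRP1 (4.47) and TAGLN (3.63), all of the actin cytoskeleton or smooth muscle, and the transcription factor RUNX2 (3.70) were higher. SCG2, a secretory granule protein (0.210), ACTG2, a smooth muscle actin (0.227), DAB1 (0.186) and CYP19A1, the aromatase (0.313), were lower. SCG2 was held by 24.7% of the 227 and 21.6% of the 573, and ACTG2 by 12.8% and 11.3%. Both thus had fewer UMIs per barcode where CEMIP was high rather than fewer barcodes with a UMI. HBB headed the list at 33.4, but 97.8% of its UMIs in the 227 came from 1 barcode.

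These differences were of similar size in barcodes of 2000 to 5000 genes alone, where ARNT2 had a ratio of 5.46, MYH11 4.44, SCG2 0.212 and CYP19A1 0.316. FOXO1 was 1.87 times higher in the 227 and INHA 0.463 times as high, and FSHR, at 18.2 and 28.2 CPM, had a ratio of 0.643 (0.437 to 0.926). MITF was at 369 CPM in the 227 and 190 in the 573, NFE2L3 at 248 and 151, and DEFB1 at 50.2 and 23.2. TESC was at 224 and 201 CPM, with overlapping intervals. The companions FBXO32 (2.43), SELENOP (1.87), NUPR1 (1.69) and TXNIP (1.13) were higher in the 227 too. The 573 were thus lower in most genes of the group and not only in CEMIP. Within the barcodes that hold the members, CEMIP went with these genes and with MYH11, TAGLN and ARNT2, while FSHR was lower where CEMIP was high.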

How the data were processed

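Somatic cells of 2 pig follicles were measured with 10x Genomics 3′ single-cell RNA sequencing. The authors deposited the UMI count of each gene and barcode, made with CellRanger 6.0.2 on Sscrofa11.1, with no normalization and no filter beyond the cell calling of that tool. No other column of per-sample values was set aside. The 6 members, the gene lists and the comparisons were chosen with earlier results of these data known. Symbols were taken from the deposited gene list, and rows of a repeated symbol were summed.

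UMIs were summed over barcodes and divided by the summed UMIs to give CPM, with exact Poisson intervals. Shares have Clopper-Pearson and ratios exact conditional intervals, at 95%. No test was run, since each follicle is 1 library, and where no UMI was seen the text prints the limit that a count of 3 would give. Pearson's r used log UMIs per 10000. Fixed depth was reached by drawing 1000 UMIs per barcode without replacement. Doublets were not removed. A leukocyte barcode had 10 or more UMIs of at least 3 leukocyte markers, and a red cell barcode over 50% of its UMIs from HBB. The correlation script was tested on simulated data.

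Named genes were the members, the 10 genes with the highest mean r with them in follicle 2 (at least 200 UMIs), the 3 nearest genes of each member, the ends of each list with its genes past 2-fold, up to 4, and the list of relatives. A few genes of the lists are not reported here. Genes of the CEMIP split, the neighbours on chromosome 7, overlapping genes and markers at or near 0 were named after their values were seen. Upstream sequences and positions came from RefSeq for Sscrofa11.1, and all motifs were searched on both strands. Python 3.11.15, numpy 2.4.6, scipy 1.17.1, pandas 2.3.3 and matplotlib 3.10.9 were used. The alternatives were other gene limits, other thresholds on members, thinning, other library sizes and other sets of barcodes.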

Additional observations from a re-analysis of the deposited data

Results flagged for a closer look

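NFE2L3 moved in opposite directions in the 2 follicles: the level in barcodes with 2000 to 5000 genes over that under 2000 genes was 1.63 in follicle 1 (804 and 34 UMIs) and 0.505 in follicle 2 (1814 and 385 UMIs). With 1 library per follicle this difference was not tested.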

How the results depend on the processing

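No paired analysis was possible because each follicle gave 1 library and no result comes from a test. Of 38 summary values recomputed under other settings, 23 stayed within their spread, 15 moved and none reversed. Of 264 finer values, such as those of single members and pairs, 133 stayed, 129 moved and 2 reversed. Both reversals were of the r of CEMIP and MITF in follicle 1. The median log2 ratio of follicle 2 over follicle 1 was 3.74, and 4.57 as a mean over barcodes and 4.54 thinned to 1000 UMIs. The median log2 ratio of 2000 to 5000 genes over under 2000 genes in follicle 2 was -1.36, and -0.90 with a limit of 1500 genes, -2.37 with 2500, -0.64 as a mean over barcodes and -0.66 thinned. The median r of the pairs in follicle 2 was 0.261, and 0.232 by Spearman's correlation, 0.154 and 0.0739 thinned to 1000 and 500 UMIs, 0.467 in 2000 to 5000 genes and 0.130 under 2000 genes. The median log2 ratio with 3 or more other members was 4.58, and 4.70 with 2 or more, 4.25 with 4 or more, 3.43 thinned and 3.0 under 2000 genes. The r of CEMIP and MITF in follicle 1, 0.0717, became -0.0012 thinned to 1000 UMIs and -0.0075 in 2000 to 5000 genes, which leaves out the 1 barcode that holds both. Of the 10 genes most like the members, 10 remained with a minimum of 50 UMIs and 9 in 2000 to 5000 genes. Of 32 values under alternatives chosen after seeing the data, 12 moved. Of these, 9 were follicle ratios in barcodes with no other member, which went from 13.5 to 6.57 in 2000 to 5000 genes and 67.8 under 2000 genes for CCDC80, and from 2.34 to 1.15 and 8.80 for TESC. The causes were not tested. Depth limits CEMIP, CCDC80 and DEFB1 in follicle 1, where the ratios rest on 34, 87 and 14 UMIs.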
